A study of Mus musculus with 12 samples.

Results

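The interferon regulatory factors are a family of transcription factors, and 8 of their genes (Irf1, Irf2, Irf3, Irf4, Irf5, Irf7, Irf8 and Irf9) were described among the 23472 genes of a count table from mouse long-term haematopoietic stem cells (LT-HSCs). They were chosen by gene name as rows of that table, with earlier results of these data known. LT-HSCs are the marrow cells from which all blood lineages are renewed throughout life. The samples were 6 libraries labelled Jak1 KO, from cre-positive C57BL/6 mice, and 6 wt libraries, from cre-negative C57BL/6 mice. Jak1 encodes a kinase that carries signals from interferon receptors and many interleukin receptors. Animals of both groups received 4 doses of poly(I:C), given 4 to 6 weeks before the marrow was taken to switch on the deletion. Poly(I:C) is a double-stranded RNA that itself induces interferon. The labels give no age, name no cre driver in words and list no deleted exons. Only 1 group carried cre, so an effect of cre and an effect of losing Jak1 cannot be told apart. In each group 3 libraries (numbers 1 to 3) carried VD names and 3 (numbers 4 to 6) carried ZL names. The VD names also held MXplus in the libraries labelled Jak1 KO and MXminus in the wt libraries.

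Library depth ranged from 8989965 to 28701855 counts, and 13184 genes passed the filter on low counts. All 12 LT-HSC markers of a fixed list were tested, with summed levels of 2262 to 5195 normalised CPM (counts scaled to library size) in libraries labelled Jak1 KO and 2863 to 5252 in wt libraries. Jak1 itself ranged from 246 to 727 CPM among libraries labelled Jak1 KO and from 321 to 435 CPM among wt libraries, with overlap (edgeR adjusted p = 0.945 for a log2 fold change of 0.18, SE 0.20). Since reads from undeleted exons enter the count of the gene, this value does not check the labels. Separate animals are not stated for the replicates, so p-values measure sample spread that may be technical. The VD and ZL libraries stood apart in their share of 45S ribosomal RNA counts (14.8% to 22.6% in VD, 0.511% to 0.950% in ZL), and genotypes were compared with name set as a term.

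Interferon regulatory factors share a DNA-binding domain with conserved tryptophans that recognises GAAA repeats, the core of the interferon-stimulated response element (ISRE). Irf9 joins phosphorylated STAT proteins, STAT2 among them, to form ISGF3, the complex that type I interferon receptors activate through JAK1 and TYK2. Interferon gamma acts through gamma-activated sites (GAS), and Irf1 is one of its classical targets. In mouse stem cells Irf2 is known for restraining the response to type I interferon.

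The promoters of the called members, and of the activator and repressor pair Irf1 and Irf2, are shown because interferon signals reach target genes through such sites. Each window holds 250 bases before and 50 bases after an annotated start site (RefSeq, GRCm38.p6) and reads 5′ to 3′ on the gene's strand. Capitals mark matches to the ISRE core (GAAA, then NN for any 2 bases, then GAAA) or the GAS core TTCNNNGAA, searched on both strands (the GAS core is its own reverse complement). The first 2 windows, of Irf9 and Irf7, hold neither motif, and the next 2, of Irf1 and Irf2, do.
Irf9, chr14:55603735-55604034, plus strand: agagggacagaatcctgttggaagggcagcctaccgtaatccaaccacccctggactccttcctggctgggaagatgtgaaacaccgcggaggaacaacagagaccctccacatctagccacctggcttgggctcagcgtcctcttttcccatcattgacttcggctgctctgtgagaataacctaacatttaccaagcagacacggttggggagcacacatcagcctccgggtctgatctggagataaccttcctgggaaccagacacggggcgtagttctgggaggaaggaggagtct
Irf7, chr7:141266375-141266674, minus strand: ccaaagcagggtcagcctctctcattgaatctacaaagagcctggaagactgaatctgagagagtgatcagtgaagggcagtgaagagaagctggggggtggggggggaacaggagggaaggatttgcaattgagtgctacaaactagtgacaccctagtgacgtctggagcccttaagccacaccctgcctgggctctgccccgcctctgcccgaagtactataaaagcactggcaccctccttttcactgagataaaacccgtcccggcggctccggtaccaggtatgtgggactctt
Irf1, chr11:53769764-53770063, plus strand: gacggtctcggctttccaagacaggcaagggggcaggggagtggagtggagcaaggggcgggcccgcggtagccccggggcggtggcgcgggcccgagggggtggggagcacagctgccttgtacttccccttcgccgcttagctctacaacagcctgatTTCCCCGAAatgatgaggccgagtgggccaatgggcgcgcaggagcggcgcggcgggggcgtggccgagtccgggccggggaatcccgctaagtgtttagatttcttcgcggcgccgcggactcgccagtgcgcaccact
Irf2, chr8:46739495-46739794, plus strand: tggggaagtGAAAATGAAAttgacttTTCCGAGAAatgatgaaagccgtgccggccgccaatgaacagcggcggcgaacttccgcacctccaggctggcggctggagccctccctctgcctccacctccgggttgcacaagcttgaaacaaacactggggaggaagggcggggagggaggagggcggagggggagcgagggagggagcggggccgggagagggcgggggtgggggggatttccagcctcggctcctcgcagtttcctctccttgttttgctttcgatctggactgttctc

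The Irf1 window held the GAS match TTCCCCGAA, beginning at -90 from the start site. The Irf2 window held the ISRE match GAAAATGAAA at -241 and the GAS match TTCCGAGAA at -224, which do not overlap. Irf8 had 2 GAS matches in its first window. No match was found in the windows of Irf3, Irf4 and Irf5, nor in the second windows listed for Irf1, Irf8 and Irf9. For comparison, 3.44% of 32841 such windows over all genes held the ISRE core and 8.3% held the GAS core. A match is a string of letters in this window and was not shown to be a site in use. Sites outside these windows, or with letters that depart from the 2 cores, were not searched. A window without a match therefore does not show that the gene lacks such a site.

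Irf9 and Irf7 fell in the libraries labelled Jak1 KO, Irf1 lay below wt within both name sets but just missed the threshold, and Irf2, Irf3, Irf5 and Irf8 did not pass. Irf9 was 2.55-fold and Irf7 4.17-fold lower, against 1.58-fold for Irf1. Of the 8 members 7 passed the filter on low counts, and Irf4 did not. With edgeR's quasi-likelihood test 2 members were called lower and 0 higher, where 0.432% of all genes tested were called lower and 0.00758% higher, 0.44% in all. At an unadjusted p under 0.05, which 5.06% of genes reached, stood 3 members, Irf1, Irf7 and Irf9. DESeq2 and limma-voom also called 0 members higher. In bulk RNA, fewer cells of one type and less RNA per cell cannot be told apart. Among markers of other cell types, the summed level of 6 megakaryocyte markers moved with genotype, at 454 to 783 CPM in libraries labelled Jak1 KO and 1020 to 1377 CPM in wt libraries. Of these 6 genes 1, the integrin gene Itga2b, was called lower, and its range was 130 to 376 CPM in libraries labelled Jak1 KO and 383 to 731 CPM in wt libraries. The ranges of the other megakaryocyte markers overlapped. Pf4, Vwf and Gp1bb reached higher in wt libraries. In libraries labelled Jak1 KO, Gp9 reached 113 CPM and Ppbp 40.0 CPM, against 79.6 and 14.8 CPM in wt libraries. The other 6 lists, of dendritic, monocyte, neutrophil, B, T and NK, and erythroid markers, had 0 genes called with edgeR and overlapping sums. Flt3 of the dendritic list was not called but did not overlap. It was at 35.6 to 52.1 CPM in libraries labelled Jak1 KO and 25.2 to 33.5 CPM in wt libraries. Labelled Jak1 KO 4 was the highest of the 6 libraries with that genotype label in its summed monocyte (969 CPM), dendritic (343), B and plasma cell (153), T and NK cell (195) and megakaryocyte (783) markers, and the lowest in LT-HSC markers (2262). The part of such cells in the lower Irf9, Irf7 and Irf1 levels was not tested.

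**Figure D1:**
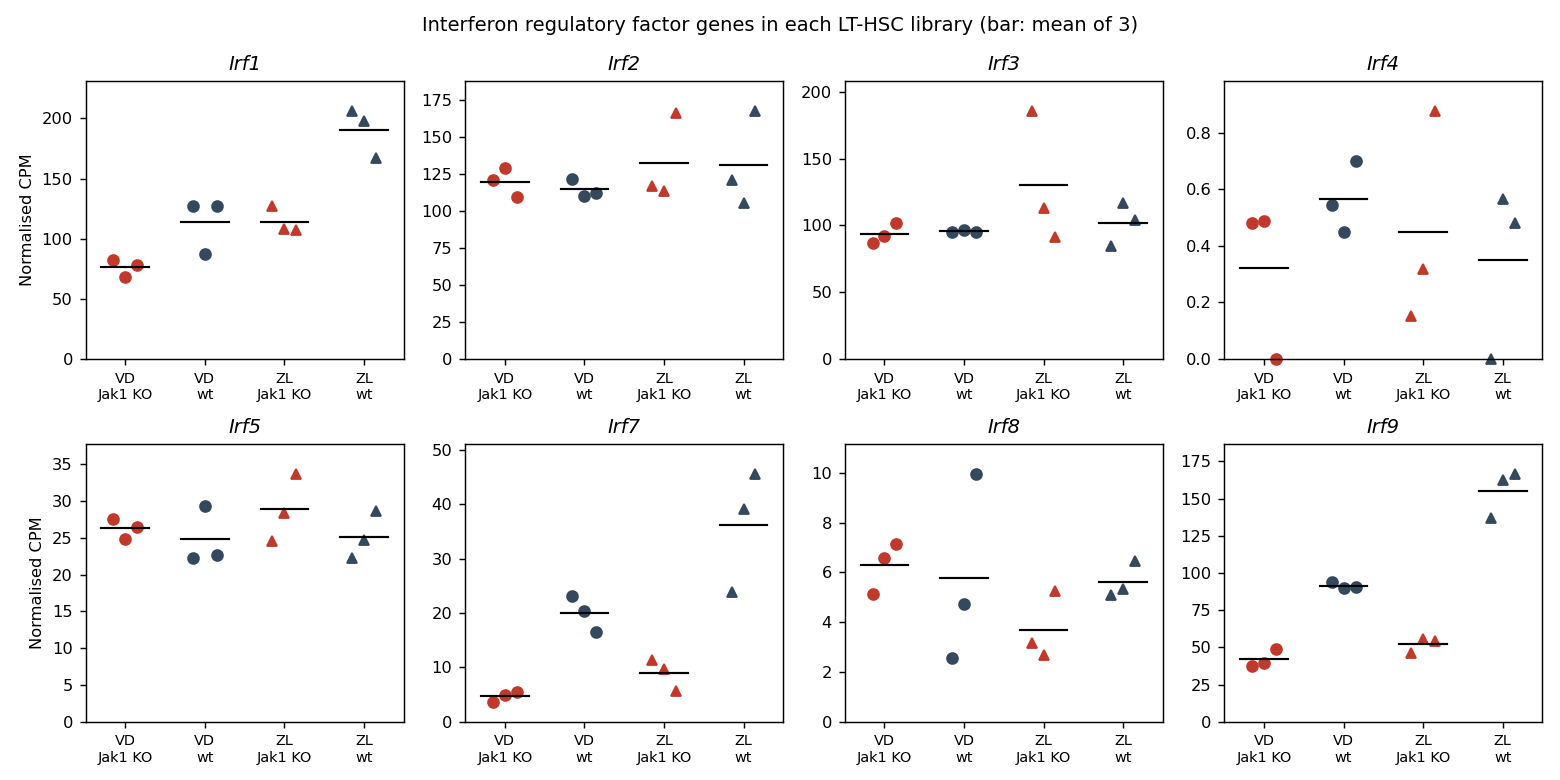
Normalised CPM (vertical axis, linear from 0) of each member in each library, with circles for VD, triangles for ZL, red for libraries labelled Jak1 KO, blue-grey for wt and a bar at the mean of 3. Irf1, Irf7 and Irf9 show no overlap between genotypes within either name set, while the other 5 genes overlap in at least 1 set.

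Irf9, the DNA-binding subunit of ISGF3, lies on chromosome 14 from 55603985 to 55610030 (GRCm38.p6). It was counted at 37.7, 39.5 and 48.9 CPM in the VD libraries labelled Jak1 KO, against 93.9, 89.8 and 90.3 CPM in VD wt libraries. In ZL it was at 46.0, 55.5 and 54.6 CPM in the libraries labelled Jak1 KO, against 137, 162 and 167 CPM in wt. The highest library labelled Jak1 KO, at 55.5 CPM, was well under the lowest wt library, at 89.8 CPM, whichever name set they came from. Irf9 had a log2 fold change of -1.35 (SE 0.14, 95% interval -1.66 to -1.04, edgeR adjusted p = 0.00034), and it ranked 7 by p among all genes tested. Within a group and set the spread was small, with an SD of 0.03 to 0.20 on the log2 CPM scale.

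Irf7, the interferon-inducible family member that drives transcription of interferon alpha genes, lies on chromosome 7 from 141263183 to 141266499. It stood at 3.68, 5.00 and 5.44 CPM in VD libraries labelled Jak1 KO, against 23.2, 20.3 and 16.5 CPM in VD wt libraries. The ZL libraries labelled Jak1 KO held 11.4, 9.61 and 5.66 CPM, against 23.8, 39.2 and 45.6 CPM in ZL wt libraries. The genotypes again did not overlap, within or across name sets. Its log2 fold change came to -2.06 (SE 0.23, 95% interval -2.55 to -1.57, edgeR adjusted p = 0.000407), the largest of the 7 members tested. These values rest on 741 counts in all in the libraries labelled Jak1 KO and 3735 in wt libraries.

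Irf1, an activator of the same GAAA-type sites and of the class I antigen presentation genes, lies on chromosome 11 from 53770014 to 53778374. It was at 82.6, 68.6 and 78.1 CPM in VD libraries labelled Jak1 KO, against 127, 87.7 and 127 CPM in VD wt libraries. In ZL it was at 127, 108 and 107 CPM in libraries labelled Jak1 KO, against 206, 198 and 167 CPM in wt. Within each set the genotypes did not overlap, whereas across sets the ZL libraries labelled Jak1 KO reached the level of the VD wt libraries. Its log2 fold change was -0.66 (SE 0.14, 95% interval -0.96 to -0.36), with an edgeR adjusted p of 0.0621 and rank 66 by p. The Irf1 log2 fold change passed with DESeq2 (adjusted p = 0.0183) and limma-voom (0.00211), and with edgeR without the library labelled Jak1 KO 4 (0.0474) or without wt 2 (0.0326). In the other 10 fits that left out 1 library its edgeR adjusted p reached up to 0.241.

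The 3 members without overlap in both sets, Irf1, Irf7 and Irf9, were all on the lower side, an arrangement found in 0.963% of all genes tested (13.2% in VD alone and 2.34% in ZL alone). For the reverse arrangement the count was 0 members, against 0.425% of genes.

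Irf2, which binds the sites of Irf1 and mostly represses them, lies on chromosome 8 from 46739745 to 46847458. It ranged from 109 to 166 CPM (median 119) in libraries labelled Jak1 KO and from 105 to 167 CPM (median 116) in wt libraries. The groups overlapped throughout, and the log2 fold change of 0.03 had a 95% interval of -0.29 to 0.36 (SE 0.15, edgeR adjusted p = 0.977). The highest library of each group carried number 6, labelled Jak1 KO 6 at 166 CPM and wt 6 at 167 CPM.

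Irf3, the constitutively expressed sensor-activated factor that starts interferon beta transcription, lies on chromosome 7 from 44997648 to 45002848. Its level was 86.9 to 186 CPM (median 96.8) in libraries labelled Jak1 KO and 84.7 to 117 CPM (median 95.7) in wt libraries. The log2 fold change was 0.16 (SE 0.18, 95% interval -0.22 to 0.54, edgeR adjusted p = 0.945). The library labelled Jak1 KO 4 alone held the 186 CPM, and the log2 fold change without it was 0.02. In that library log2 CPM relative to its name set fell with exon length over all annotated transcripts (Spearman's rho -0.52 across genes, which are not independent replicates). By that length Irf3 has 3442 bases, and the shortest member is Irf5 at 2905 bases. By RefSeq mRNA exons, in contrast, Irf3 is the shortest member at 2031 bases, and Irf5 has 2647. Irf5 was at 24.5 CPM there, its lowest value among libraries labelled Jak1 KO. With an offset for such length trends the log2 fold change of Irf3 was 0.18 (SE 0.17). The part of the length trend in the 186 CPM was not tested.

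Irf5, which acts below Toll-like receptors in inflammatory cytokine transcription, lies on chromosome 6 from 29526130 to 29541869. It had 24.5 to 33.7 CPM (median 27.0) in libraries labelled Jak1 KO and 22.2 to 29.4 CPM (median 23.7) in wt libraries. The ranges overlapped, and the log2 fold change was 0.14 (SE 0.15, 95% interval -0.18 to 0.47, edgeR adjusted p = 0.945).

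Irf8, needed for monocyte and dendritic cell development, lies on chromosome 8 from 120736358 to 120756694 and was low in both groups. It had 2.67 to 7.12 CPM (median 5.19) in libraries labelled Jak1 KO and 2.58 to 9.97 CPM (median 5.20) in wt libraries. The log2 fold change of -0.24 was less precise than those of the other members tested (SE 0.33, 95% interval -0.94 to 0.46, edgeR adjusted p = 0.945). In VD it was 0.16 (SE 0.46) and in ZL -0.61 (SE 0.37), neither past the threshold. Dendritic cell markers had summed levels of 211 to 343 CPM in libraries labelled Jak1 KO and 187 to 304 CPM in wt libraries, and the dendritic marker Siglech stayed at or below 0.478 CPM in all 12. Monocyte and macrophage markers summed to 247 to 969 CPM in libraries labelled Jak1 KO and 235 to 516 CPM in wt libraries, mostly from Lyz2, the lysozyme gene. Of the 6 dendritic and 5 monocyte markers tested 0 were called, though the dendritic marker Flt3 was higher in libraries labelled Jak1 KO without overlap. Their part in the level of Irf8 was not tested.

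Irf4, which drives plasma cell and T cell differentiation, lies on chromosome 13 from 30749233 to 30766981 and was close to undetected. It had 6, 4, 0, 2, 10 and 22 counts in the libraries labelled Jak1 KO 1 to 6, against 8, 4, 8, 0, 17 and 13 counts in wt 1 to 6. No normalised value exceeded 0.877 CPM. At 44 counts in all libraries labelled Jak1 KO and 50 in all wt libraries a genotype difference was not detectable at this depth. Without the filter on low counts edgeR gave a log2 fold change of -0.16 (SE 0.91). B and plasma cell markers summed to 37.3 to 153 CPM in libraries labelled Jak1 KO and 36.2 to 119 CPM in wt libraries, with Pax5 at or below 0.438 CPM.

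**Figure D2:**
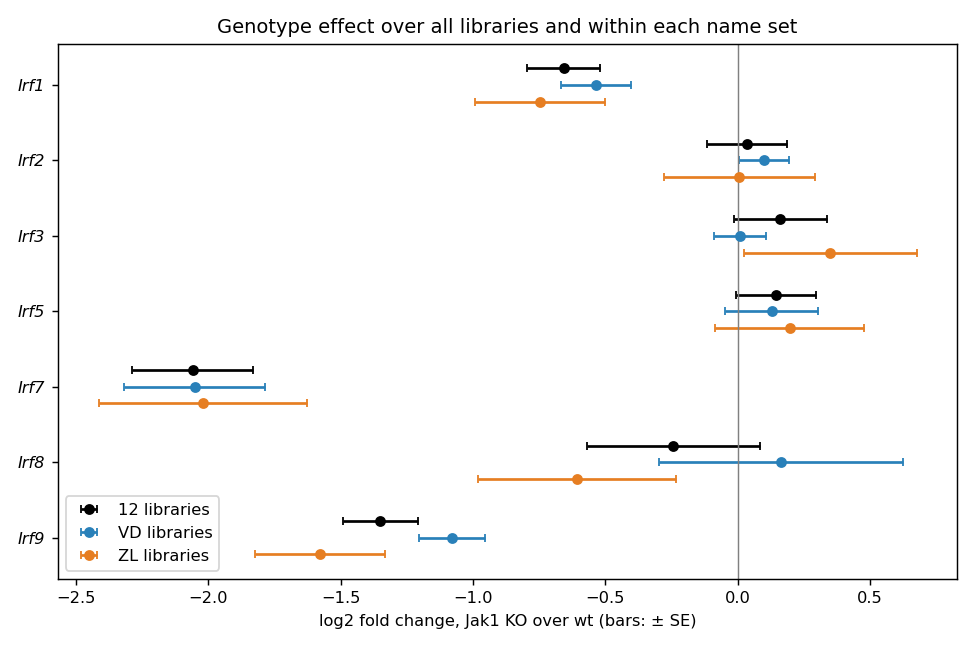
Log2 fold change of libraries labelled Jak1 KO over wt (horizontal axis, bars ± SE) for the 7 tested members over 12 libraries (black), in VD (blue) and in ZL (orange). Irf7 lies near -2 in all fits and Irf9 between -1.08 and -1.58, while Irf2, Irf3 and Irf5 lie between 0.01 and 0.35.

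Within the VD set alone edgeR called Irf9 (log2 fold change -1.08, SE 0.12, adjusted p = 0.000236) and Irf7 (-2.05, SE 0.27, adjusted p = 0.00062). In that set 0.76% of 12903 genes were called lower and 0.395% higher (1.15% in all, and 13.6% at an unadjusted p under 0.05). Irf1 had a VD log2 fold change of -0.54 (SE 0.13, adjusted p = 0.0713). This Irf1 log2 fold change passed with DESeq2 (adjusted p = 0.0133) and with edgeR without wt 2 (0.0102). Within the ZL set alone the log2 fold changes were -1.58 for Irf9 (SE 0.25), -2.02 for Irf7 (SE 0.39) and -0.75 for Irf1 (SE 0.25). None passed there with edgeR, which called 0 of 13859 genes in ZL, where 226 (1.63%) had an unadjusted p under 0.05. DESeq2 did call Irf9 (adjusted p = 0.00145) and Irf7 (0.00184) in ZL, among 41 genes called lower.

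A test of the difference between sets did not separate them for any of the 7 members tested. The genotype effect in ZL minus that in VD was -0.46 for Irf9 (SE 0.26, unadjusted p = 0.106, edgeR adjusted p = 0.975). It was 0.06 for Irf7 (SE 0.46) and -0.16 for Irf1 (SE 0.29). With edgeR the sets differed for 0 of all genes, while 182 (1.38%) had an unadjusted p under 0.05. DESeq2 called 1.

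Compared between members as CPM per kilobase of RefSeq mRNA exon, the members spanned a wide range. In the libraries labelled Jak1 KO, Irf3 (55.0 ± 18.4) and Irf2 (50.3 ± 8.29) were highest, followed by Irf1 (28.6 ± 6.70), Irf9 (15.2 ± 2.40), Irf5 (10.4 ± 1.27), Irf7 (2.84 ± 1.26), Irf8 (1.45 ± 0.519) and Irf4 (0.0809 ± 0.0643; SD, n = 6). In wt libraries, Irf2 (49.2 ± 9.12), Irf3 (48.6 ± 5.31), Irf1 (45.6 ± 13.8) and Irf9 (39.8 ± 11.8) were on top. Irf7 (11.7 ± 4.83), Irf5 (9.44 ± 1.23), Irf8 (1.65 ± 0.713) and Irf4 (0.0958 ± 0.0503; SD, n = 6) followed in wt.

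In the libraries labelled Jak1 KO the ranges of Irf3 and Irf2 overlapped, with Irf3 above Irf2 in 3 of 6, while Irf1 lay below Irf2 and Irf9 below Irf1 in 6 of 6. Among wt libraries neighbours within the top 4 overlapped in range, and Irf1 exceeded Irf9 in 4 of 6. Irf7 was above Irf5 in 4 of 6 wt libraries but below it in 6 of 6 libraries labelled Jak1 KO. Irf8 and Irf4 were below the rest in every library. The order depends on the exon length used. With the exons of all annotated transcripts, Irf1 led in wt, Irf2 came after Irf9 there, and Irf5 exceeded Irf9 in 4 of 6 libraries labelled Jak1 KO.

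**Figure D3:**
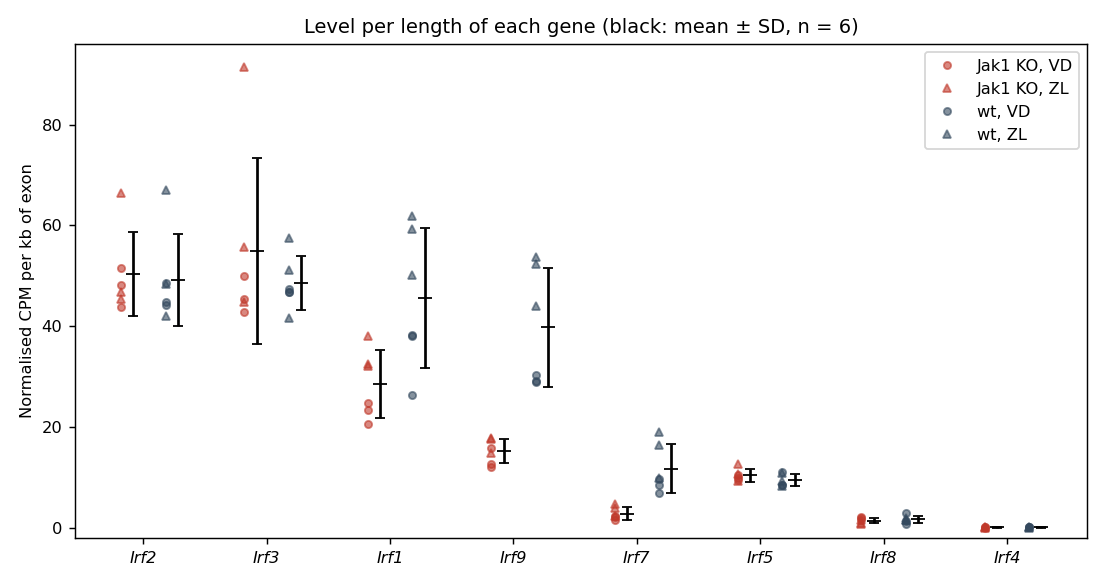
Normalised CPM per kilobase of RefSeq mRNA exon (vertical axis, linear) for each member in libraries labelled Jak1 KO (red, left) and wt libraries (blue-grey, right), with mean ± SD in black (n = 6). Irf2 and Irf3 lie near 50 in both groups, Irf9 averages 15.2 against 39.8, and Irf8 and Irf4 lie near the axis.

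As a share of the summed per-length level of the 8 genes, Irf9 took 9.33% ± 1.38 in libraries labelled Jak1 KO and 19.0% ± 2.50 in wt libraries (SD, n = 6 each). Irf7 took 1.69% ± 0.542 in libraries labelled Jak1 KO and 5.54% ± 1.38 in wt libraries. Irf3 took 33.1% ± 6.32 in libraries labelled Jak1 KO and 24.0% ± 3.55 in wt libraries. Irf2 took 31.2% ± 5.63 in libraries labelled Jak1 KO and 24.1% ± 3.54 in wt libraries. Shares of one total move against each other, so a larger share does not show a higher level.

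Ratios of counts between genes of one library do not depend on library size, and 3 were compared by exact two-sided permutation of genotypes within name sets (400 relabelings, smallest possible p 0.005). Irf1 over Irf2, activator over repressor, ranged from 0.534 to 1.09 (median 0.700) in libraries labelled Jak1 KO and from 0.796 to 1.89 (median 1.09) in wt libraries. The log2 ratio was lower by 0.68 on average in the libraries labelled Jak1 KO (difference -0.68, exact p = 0.01, adjusted over 3 ratios 0.015), with -0.62 in VD and -0.75 in ZL. In VD the genotypes did not overlap, whereas in ZL wt 6, at 0.998, lay below labelled Jak1 KO 4 at 1.09. Irf7 over Irf3, inducible over constitutive, was 0.0441 to 0.0856 in libraries labelled Jak1 KO and 0.175 to 0.440 in wt libraries, with no overlap. Its log2 difference was -2.17 (exact p = 0.005, adjusted over 3 ratios 0.015).

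Irf9 over Stat2, the ratio of 2 ISGF3 subunits, separated the genotypes in VD but not in ZL. In VD it was 0.773 to 0.919 in libraries labelled Jak1 KO and 1.30 to 1.55 in wt libraries. Over both sets it ranged from 0.771 to 3.17 (median 0.884) in libraries labelled Jak1 KO and from 1.30 to 3.35 (median 1.49) in wt libraries. The log2 difference was -0.58 (exact p = 0.11, adjusted over 3 ratios 0.11), with -0.72 in VD and -0.43 in ZL. The exact p was 0.025 without labelled Jak1 KO 4 and 0.045 without wt 6. Labelled Jak1 KO 4 held the 3.17, with Stat2 at 14.4 CPM where the other 5 libraries labelled Jak1 KO held 28.0 to 70.8 CPM.

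**Figure D4:**
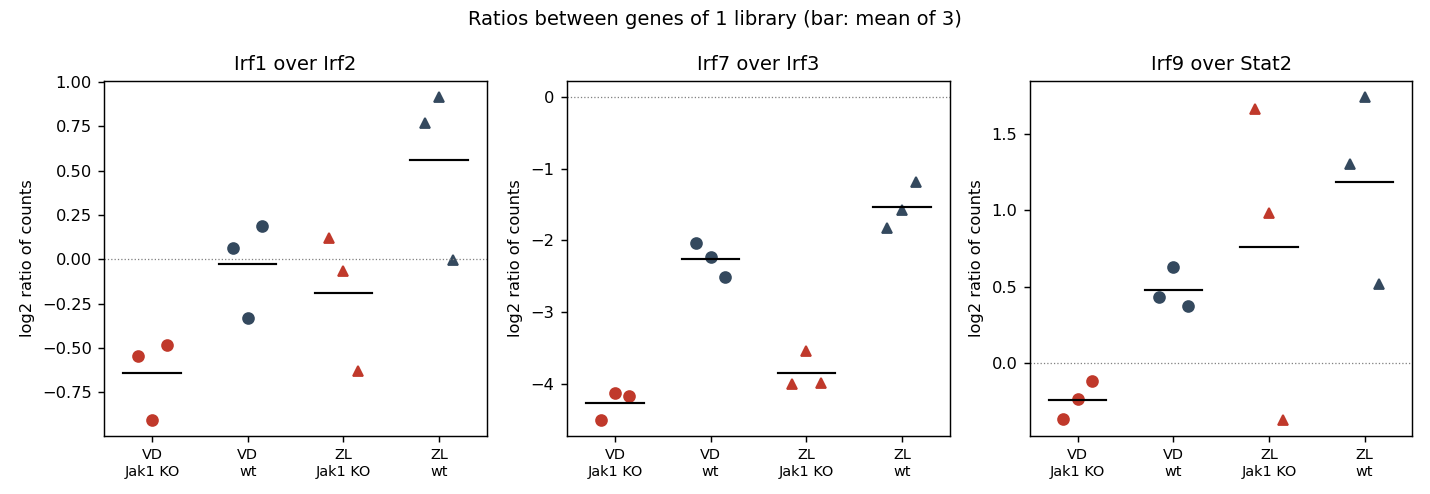
Log2 ratio of counts (vertical axis) between gene pairs within each library, by name set and genotype, with a bar at the mean of 3. Irf7 over Irf3 separates the genotypes in both sets, Irf1 over Irf2 in VD, and Irf9 over Stat2 in VD but not in ZL.

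Around the family, most calls among the listed genes reported here fell in lists of genes that interferon induces. The lists were chosen with earlier results of these data known, so where the calls fell among them is no independent test. Of the 10 tested receptor, kinase and STAT genes reported here 0 were called with edgeR, and 0 had an unadjusted p under 0.05. Their median log2 fold change was -0.01, where all tested genes had a median of -0.006. Stat2, the ISGF3 subunit, was at 43.6 ± 19.8 CPM in libraries labelled Jak1 KO and 69.6 ± 24.5 CPM in wt libraries and did not pass (-0.68, SE 0.33, adjusted p = 0.945). The kinase gene Jak2 did not pass (-0.51, SE 0.31), and neither gene was called by DESeq2 or limma-voom. The Jak2 log2 fold change rested on single libraries, at -0.09 without wt 4 and -0.31 without labelled Jak1 KO 4, and was -0.10 with limma-voom. The Stat2 log2 fold change was -0.43 without wt 6 and -0.45 without labelled Jak1 KO 4. Leaving out labelled Jak1 KO 6 moved it further from 0.

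Among 19 tested sensors, adaptors and kinases that activate IRF proteins, 0 were called with edgeR, and the median was -0.14. The RNA sensor genes Ddx58 (-0.75, SE 0.24, adjusted p = 0.521) and Ifih1 (-0.43, SE 0.23, adjusted p = 0.945) had the smallest p. Without wt 6 the Ifih1 log2 fold change was -0.20. The Ddx58 log2 fold change had an unadjusted p of 0.0077 and passed with limma-voom (adjusted p = 0.022) and with 3 ZL libraries removed (those labelled Jak1 KO 4 and 6, and wt 6; 0.0463). Of 11 tested partners and modifiers 0 were called, with a median of -0.05. Nearest were Batf2, a leucine zipper partner (-0.65, SE 0.23, adjusted p = 0.674), and Trim21, a ubiquitin ligase (-0.38, SE 0.15, adjusted p = 0.825).

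Interferon-stimulated genes of the ISRE type numbered 25, all tested. Of these 13 were called lower, 0 higher and 12 not called, where 0.432% of all genes tested were called lower. All 25 log2 fold changes in this list were below 0 (51% over all genes), with a median of -1.23. By the naming rule these include Ifi44, an interferon-induced antiviral gene (log2 fold change -2.01, SE 0.22), Oas2, a 2-5A synthetase (-6.34, SE 0.74), and Rtp4, a receptor transporter gene (-3.00, SE 0.36). Of 19 tested genes linked to Irf1, 3 were called lower (0.432% over all genes) and 0 higher, with a median of -0.42 and 15 of 19 below 0. Tap1, a peptide transporter, was at 126 ± 20.5 CPM in libraries labelled Jak1 KO and 258 ± 22.3 CPM in wt libraries (edgeR adjusted p = 0.00169, log2 fold change -1.04, SE 0.14). The chemokine gene Cxcl10 had a log2 fold change of -3.45 (SE 0.62, adjusted p = 0.0222) and the GTPase gene Gbp2 of -0.67 (SE 0.13, adjusted p = 0.0474). Cxcl10 was near the floor, at 0.289 ± 0.388 CPM in libraries labelled Jak1 KO and 2.58 ± 2.08 CPM in wt libraries. It did not pass a filter of at least 1 CPM in 6 libraries.

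The last 2 calls often ended when 1 library was left out, while the log2 fold changes stayed below 0. They ranged from -3.94 to -3.22 for Cxcl10 and from -0.75 to -0.60 for Gbp2. Cxcl10 missed the threshold when wt 5, or when number 1, 2, 3, 5 or 6 of those labelled Jak1 KO, was left out (edgeR adjusted p up to 0.124). Gbp2 passed only without labelled Jak1 KO 3 or labelled Jak1 KO 4 among the 12 fits that left out 1 library (up to 0.176 otherwise). Its call ended under 6 of 11 other settings, among them DESeq2 size factors, no filter on low counts, no set term, an exon length offset and the removal of 3 ZL libraries (those labelled Jak1 KO 4 and 6, and wt 6). Lineage genes linked to Irf4 and Irf8 had 10 tested members with 0 called and a median of 0.05. Cebpa, a myeloid transcription factor, was at 1.30 (SE 0.61; 0.48 without labelled Jak1 KO 2) and Prdm1, a plasma cell factor, at -0.89 (SE 0.63; -0.59 without labelled Jak1 KO 3). Of 9 interferon ligand genes counted, 0 passed the filter on low counts, and 3 had 0 counts in all libraries.

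**Figure D5:**
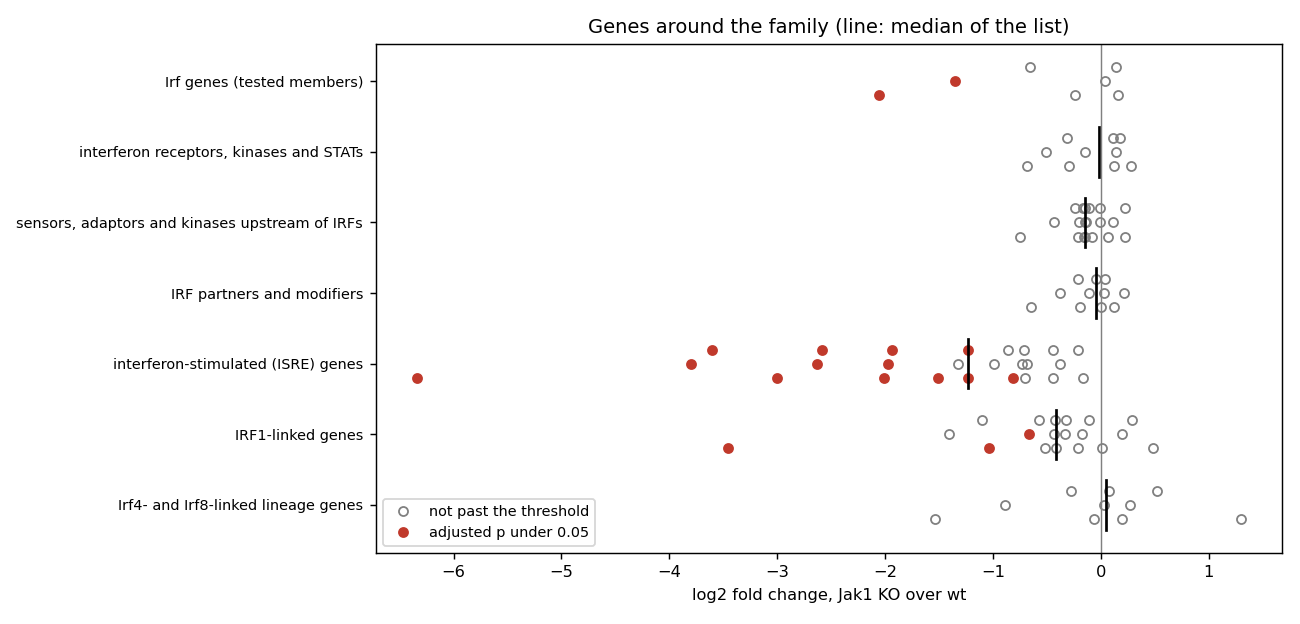
Log2 fold change of libraries labelled Jak1 KO over wt (horizontal axis) for the tested members and for 6 lists of related genes, with filled points past an edgeR adjusted p of 0.05 and a line at each list's median (none for the members). The ISRE list lies wholly below 0 with a median of -1.23, while the receptor, kinase and STAT genes plotted have their median at -0.01.

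By profile across the 12 libraries, the genes nearest to Irf9 were Oasl2, an oligoadenylate synthetase-like gene, Ache, the acetylcholinesterase gene, and Mfsd2b, a sphingolipid transporter gene. Their root mean square differences from Irf9, on log2 CPM after the mean of each set was taken away, were 0.18, 0.18 and 0.19, against 0.70 for a flat profile, among 11882 genes. Their log2 fold changes were -1.23 (SE 0.16), -1.29 (SE 0.14) and -1.28 (SE 0.16), all past edgeR's threshold. Nearest to Irf7 were Tgtp2 (0.33), Ifi27l1 (0.35) and Tgtp1 (0.38), against 1.07 for a flat profile. Tgtp1 and Tgtp2 encode near-identical T-cell-specific GTPases between which reads may be split, and their values are uncertain. With Irf9 and Irf7 both split by genotype, genes with a like genotype effect are near by construction.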

How the data were processed

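Poly-A RNA of LT-HSCs was sequenced in 12 libraries (per the labels, TRIzol and TruSeq version 2). The deposited values are raw read counts per gene. The submitters' processing notes name the mm10 build, STAR 2.3.0e, Subread and featureCounts. Neither the annotation nor the strand setting is given there. Reads of overlapping or antisense genes therefore cannot be told apart.

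Differences were tested with edgeR 4.0.16 in R 4.3.3 (filterByExpr, TMM, a term for name set, glmQLFit and glmQLFTest, Benjamini-Hochberg over all genes tested, threshold 0.05). Standard errors (SE) were derived from the F statistics. Normalised CPM uses TMM-scaled library sizes, log2 CPM a prior count of 2, and ratios added 2 to each count. Values after ± are SDs. For levels per kilobase, exon lengths came from GENCODE M21 transcripts paired with RefSeq mRNAs. Length trends and the exon length offset used the exons of all GENCODE M21 transcripts. Promoters came from RefSeq (GRCm38.p6, the assembly of mm10). All 8 members had a promoter window. DESeq2 1.42.0 and limma 3.58.1 were alternatives, with others given in the closing section. No 2 libraries of a group and set agreed within sampling noise (lowest chi-square per degree of freedom 13.8). On simulated counts for the 12-library comparison (12941 genes), edgeR recovered 45% of genes changed by 1 and 89% of those changed by 2 on the log2 scale. The simulated counts held no difference between name sets and no length trend, so recovery in the real libraries may differ.

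The members and gene lists were chosen with earlier results of these data known. All members, up to 3 genes per list with the smallest p (2 where none passed), and the 3 nearest profiles of each called member were named. One further family gene that the rule takes and 1 gene of the lists are not reported here. Siglech, Flt3, Lyz2, Pax5 and the megakaryocyte markers were named after their values were seen.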

Additional observations from a re-analysis of the deposited data

Results flagged for a closer look

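In each genotype's 6 libraries, 22 sets of values (8 members and 3 ratios) were searched for a library far from the rest, and chance flags about 1 set in 20. Irf3 in the library labelled Jak1 KO 4 stood apart at a log2 CPM of 7.54 (186 CPM), where the other 5 libraries labelled Jak1 KO held 86.9 to 113 CPM. Irf2 in wt 6 stood apart at a log2 CPM of 7.39 (167 CPM), where the other 5 wt libraries held 105 to 122 CPM. Across genes, log2 CPM relative to the name set fell with exon length in labelled Jak1 KO 4 (Spearman's rho -0.52) and rose with it in wt 6 (0.38) and in labelled Jak1 KO 6 (0.45), where Irf2 was also high. The part of this trend in the 2 values was not tested. Irf4 in wt 4 stood apart at a log2 CPM of -3.19 from 0 counts, where the other 5 wt libraries held 4 to 17 counts.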

How the results depend on the processing

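The calls of Irf9 and Irf7 held under all 11 alternatives and all 12 fits that left out 1 library. Their log2 fold changes ranged from -1.43 to -1.18 for Irf9 and from -2.17 to -1.92 for Irf7, and their highest adjusted p were 0.0433 and 0.0454. Irf1 was called with DESeq2, limma-voom and the replicate block, and without 3 ZL libraries, but the count of members called lower stayed at 2 or 3. Genes called lower numbered 96 with DESeq2, 174 with limma-voom, 14 with no set term and 88 without 3 ZL libraries (those labelled Jak1 KO 4 and 6, and wt 6), an alternative chosen after seeing the data. Genes called higher numbered 21, 46, 0 and 8 in the same order. They numbered 3 with no filter, with an exon length offset or at an adjusted p of 0.1, and 2 with the replicate block. Leaving out 1 library gave 38 to 75 lower and 0 to 2 higher. In VD alone DESeq2 gave 220 lower and 160 higher, against 98 and 51 with edgeR, and leaving out 1 library gave 56 to 194 and 6 to 111. In ZL alone DESeq2 gave 41 lower, and for the difference between sets 1. The Irf9 over Stat2 difference ranged from -0.80 to -0.29 when 1 library was left out. The cause of these shifts was not tested.

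With no set term, calls of Ifi44, Rtp4, Tap1, Cxcl10, Gbp2, Tgtp2, Ifi27l1, Tgtp1, Oasl2 and Ache ended. Signs turned only among effects that were not called. With limma-voom Irf3 was at -0.027 and Irf8 at 0.011. Irf2 in ZL was at -0.0036 with DESeq2 size factors and -0.018 with DESeq2, and its difference between sets was 0.029 and 0.028 in the same order. When 1 library was left out, Irf8 ranged from -0.44 to -0.02, Irf5 from 0.08 to 0.22 and Irf2 from -0.050 to 0.13 over 12 libraries and -0.18 to 0.19 in ZL, Irf3 in VD from -0.056 to 0.062, and Irf8 in VD from -0.20 to 0.83. The difference between sets then ranged from -0.25 to 0.17 for Irf2, -0.028 to 0.21 for Irf5 and -0.16 to 0.30 for Irf7.

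Same-numbered libraries correlated by 0.04 to 0.67 in their deviations, above 0.1 in 4 of 6 pairs and highest for number 6. These values do not settle whether such libraries share more than a number. The main fit had no block for number because the labels do not say that it marks a shared animal or day. The replicate block gave 70 genes lower and 2 higher, and the Irf1 log2 fold change passed with it (-0.65, adjusted p = 0.0493). The Cxcl10 log2 fold change (-3.38, adjusted p = 0.0758) and the Gbp2 log2 fold change (-0.67, adjusted p = 0.0843) no longer passed with it. Depth limits Irf4, at 44 counts in all libraries labelled Jak1 KO and 50 in all wt libraries.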

Other observations

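Among the 7 members tested, wt libraries of the 2 name sets differed most in Irf7, Irf9 and Irf1, which also had the largest genotype effects. Irf4, at 0 to 17 counts in wt libraries, is not compared here. On the log2 CPM scale the mean of ZL minus VD in wt was 0.81 for Irf7, 0.76 for Irf9 and 0.76 for Irf1, against 0.17 for Irf2, 0.08 for Irf3, 0.03 for Irf5 and 0.17 for Irf8. In the libraries labelled Jak1 KO it was 0.86 for Irf7, 0.31 for Irf9, 0.58 for Irf1, 0.12 for Irf2, 0.41 for Irf3, 0.12 for Irf5 and -0.79 for Irf8. These set differences were not tested, and what the sets differ in is not given in the labels.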
